A study of Mus musculus with 8 samples.

Results

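The transcripts of thrombospondins and other secreted matrix proteins were examined in macrophages with and without a knockout of Men1, the gene of menin, a scaffold protein of histone methyltransferase complexes. The set holds 10 genes of the 54532 gene rows of the count table, picked by symbol: the thrombospondins Thbs1, Thbs2 and Thbs3, the cell-binding glycoproteins Fn1 (fibronectin) and Spp1 (osteopontin), the proteoglycan Vcan (versican), Sparc, and the collagen chains Col1a1, Col1a2 and Col3a1. The cells were peritoneal cavity macrophages of mice stimulated with thioglycollate broth, which is used to elicit an influx of inflammatory cells, and that stimulus was common to all groups. RNA was sequenced in 3 M_KO libraries (knockout), 3 M_WT libraries (wild type), 1 F_KO library and 1 F_WT library, each titled with its own animal number. The letters M and F are kept as the titles give them. Left unstated are the Men1 allele, any Cre driver, the cell types that lost the gene, the strain and the age of the mice. The labels do not say whether the libraries of a group came from separate cohorts, so error estimates measure the spread between these libraries.

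Matrix glycoproteins of this kind are secreted, and many of them act as signals to cells rather than as structural fibres. Thrombospondins bind receptors such as CD36 and CD47, fibronectin and osteopontin are bound by integrins, and versican holds hyaluronan. Macrophages are known sources of fibronectin, thrombospondin-1 and osteopontin, while fibrillar collagens are made mainly by fibroblasts and related stromal cells.

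Total counts ran from 18206427 to 22853583 per library. Men1 was at 8.17, 6.51 and 8.33 CPM (counts relative to library size, scaled by edgeR's TMM factors) in M_KO_5944, M_KO_5645 and M_KO_5642, against 25.8, 17.1 and 21.4 CPM in M_WT_5643, M_WT_6258 and M_WT_6255. It was at 11.8 CPM in F_KO_5639 and 17.95 CPM in F_WT_5638, so every KO library lay below every WT library and transcript remained in all of them. Values below follow this order of libraries within each group. All 12 macrophage marker genes were counted in every library, led by Lyz2 (8014 ± 987 FPKM in M_KO and 12052 ± 3185 FPKM in M_WT, SD, n = 3 each) and Cd14. This alone does not separate cell types, since all 10 B cell markers were counted in every library too. The macrophage markers, Lyz2 included, summed to 11409 to 13319 FPKM in M_KO and 14114 to 22150 FPKM in M_WT. In the F pair the sums were close, at 16164 FPKM in F_KO and 16482 FPKM in F_WT, both within the M_WT range. FPKM, which divides fragments by the length of the gene and the depth of the library, is the per-length scale on which levels of different genes are compared here.

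Promoter sequence is shown for Thbs2 and Thbs3, the thrombospondins whose mean level was higher in M_KO than in M_WT. Each window holds the 250 bases before the RefSeq start on GRCm38.p6, read 5′ to 3′ on the gene's strand, and capitals mark matches, on either strand, to the TATA box (TATAAA), the CCAAT box (letters as its name) and the GC box (GGGCGG).
Thbs2 (chr17:14694263-14694512, minus strand): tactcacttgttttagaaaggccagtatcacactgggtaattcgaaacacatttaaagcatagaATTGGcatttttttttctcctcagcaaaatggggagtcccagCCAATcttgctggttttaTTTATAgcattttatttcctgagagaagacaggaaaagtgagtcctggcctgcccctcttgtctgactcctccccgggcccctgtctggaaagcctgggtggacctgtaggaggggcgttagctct
Thbs3 (chr3:89214930-89215179, plus strand): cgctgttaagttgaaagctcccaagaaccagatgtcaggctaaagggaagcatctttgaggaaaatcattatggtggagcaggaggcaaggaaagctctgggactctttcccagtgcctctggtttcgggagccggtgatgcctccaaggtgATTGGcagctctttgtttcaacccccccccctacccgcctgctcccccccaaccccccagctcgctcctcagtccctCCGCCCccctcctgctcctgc
The Thbs2 window held CCAAT at 186 bases before the start, on the opposite strand, and at 144 bases, and TATAAA, on the opposite strand, at 126 bases (the distance of the first base of each match). The Thbs3 window held CCAAT at 98 bases and GGGCGG at 21 bases before the start, both on the opposite strand. Over 32851 RefSeq promoter windows of the same length, 33.8% held CCAAT, 12.4% TATAAA and 32.7% GGGCGG, so none of these matches is rare. Neither window held the AP-1 motif TGANTCA, which is in 6.75% of windows, and both held the E-box CANNTG, which is in 66.2%. The windows thus share the short motifs CCAAT and CANNTG, each common among promoters, and both had a lower CpG ratio than the median promoter (sites observed over expected from base composition, 0.219 for Thbs2 and 0.289 for Thbs3, against a median of 0.373). RefSeq windows were matched for 7 of the 10 genes.

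Fibronectin was the most counted gene of every library, whatever the genotype. Fn1 (ENSMUSG00000026193, chromosome 1, 71585520 to 71653200, minus strand, GRCm38) took 5.29%, 5.76% and 5.03% of all counts in M_KO and 5.39%, 3.93% and 4.75% in M_WT. The groups overlapped, because M_WT_5643 lay above M_KO_5944 and M_KO_5642, and M_WT_6258 was the lowest library. The mean shares were 5.36% ± 0.370 in M_KO and 4.69% ± 0.732 in M_WT (SD, n = 3 each). Their difference of 0.675 percentage points was larger than the SD of the M_KO libraries and smaller than that of the M_WT libraries. The SD within groups, taken over both, was 0.58 points. These SDs describe single libraries and are not the error of the difference. The difference was 0.296 points without M_WT_6258 and 1.03 points without M_WT_5643. In the pair with 1 library per genotype, the share was 7.35% in F_KO (7.34 to 7.36%, an exact Clopper-Pearson 95% interval that covers only counting error) and 5.29% in F_WT (5.28 to 5.30%). F_KO was the highest of all 8 libraries.

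**Figure D1:**
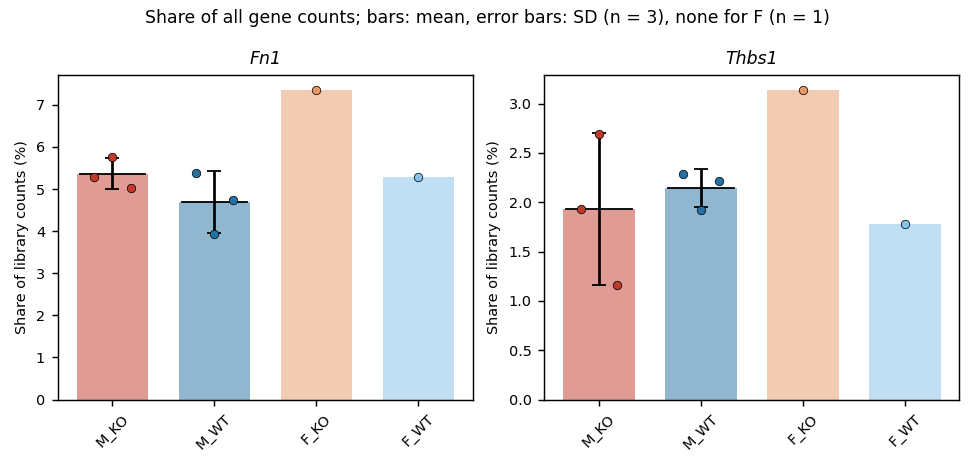
Share of each library's gene counts (y axis, percent) taken by Fn1 (left) and Thbs1 (right). Points are libraries, bars are group means with SD error bars for the groups of 3 libraries, and the F bars are single libraries; Fn1 ran from 3.93% to 7.35% and Thbs1 from 1.163% to 3.14%, with M_KO and M_WT overlapping in both.

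On the TMM scale Fn1 had 54617, 57426 and 45402 CPM in M_KO and 58179, 40054 and 47792 CPM in M_WT, with an edgeR log2 fold change of 0.10 (SE 0.30) that was -0.024 without M_WT_6258. Its level per length was 4439 ± 526 FPKM in M_KO and 4152 ± 780.1 FPKM in M_WT (SD, n = 3 each), which ranked it 3 or 4 among all genes by FPKM in each library. The count rank and the FPKM rank differ because Fn1 is long, with 11685 bases of merged exons.

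Thrombospondin-1, an activator of latent TGF-beta and a ligand of CD36 and CD47, ranked 2 or 3 by count in each library. Thbs1 (ENSMUSG00000040152, chromosome 2, 118111876 to 118127133, plus strand) had 19993, 26858 and 10492 CPM in M_KO and 24732, 19588 and 22357 CPM in M_WT. M_KO_5642 was the lowest library and M_KO_5645 the highest of the 6, so the M_KO libraries enclosed all M_WT libraries. The mean shares of all counts were 1.93% ± 0.766 in M_KO and 2.14% ± 0.196 in M_WT (SD, n = 3 each). The edgeR log2 fold change was -0.22 (SE 0.37), and it was 0.07 without M_KO_5642. F_KO had 32393 CPM and F_WT 16777 CPM, a ratio of 1.93 (1.92 to 1.94, counting interval). F_KO was thus the highest library of the series.

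Fn1 and Thbs1 together took 5.85% to 10.5% of all counts. The summed level of 12 markers of resident large peritoneal macrophages, led by Saa3 and Alox15, was 13919, 10195 and 3685 FPKM in M_KO, 12349, 7061 and 7882 FPKM in M_WT, 12679 FPKM in F_KO and 3885 FPKM in F_WT. It was lowest in M_KO_5642 and F_WT_5638, which were also the libraries with the least Thbs1. Saa3 alone made up 55.1% to 79.9% of the sum. Without it the sum was again lowest in M_KO_5642 (741 FPKM) and F_WT_5638 (1572 FPKM), against 2098 to 5690 FPKM in the other libraries. Its part in the Thbs1 differences was not tested. In bulk RNA, fewer cells of a type and less RNA per cell cannot be told apart.

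Thrombospondin-2, which inhibits angiogenesis and limits matrix metalloprotease levels, was the member with the largest ratio between genotypes, at a very low level. Thbs2 (ENSMUSG00000023885, chromosome 17, 14665500 to 14694235, minus strand) had 80, 107 and 29 counts in M_KO and 18, 7 and 14 counts in M_WT. That is 4.54, 5.53 and 1.14 CPM in M_KO and 0.889, 0.372 and 0.710 CPM in M_WT. Every M_KO library was above every M_WT library, although M_KO_5642 lay closer to M_WT_5643 than to the other M_KO libraries. F_KO held 296 counts (14.2 CPM), the highest value of the series, and F_WT 12 counts (0.517 CPM). The same order, every KO library above every WT library over all 8, was found in 3.35% of the genes tested over the 8 libraries. The M means were 3.74 ± 2.30 CPM in M_KO and 0.657 ± 0.262 CPM in M_WT (SD, n = 3 each), with an edgeR log2 fold change of 2.48 (SE 0.65). It stayed between 2.08 and 2.91 when 1 M library was left out. The ratio of F_KO over F_WT was 27.5 (15.5 to 53.9, counting interval), a log2 difference of 4.55. An interaction term for genotype and letter gave 2.28 (SE 1.27). Its error came only from the spread between M libraries, as F had 1 library per genotype. Whether the F difference of Thbs2 exceeds the M difference therefore cannot be decided from it. In the authors' deposited table Thbs2 has a log2 fold change of 2.48 and an adjusted p of 0.0287. In the M comparison here the adjusted p of Thbs2 was 0.434 with edgeR, which did not pass, and 0.0201 with DESeq2. Thbs2 was among the calls known when the set was chosen, so these values describe it and are not independent support.

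Thrombospondin-3, which forms pentamers as cartilage oligomeric matrix protein does, was also low. Thbs3 (ENSMUSG00000028047, chromosome 3, 89215180 to 89226837, plus strand) had 9.13, 10.1 and 4.18 CPM in M_KO and 4.69, 3.09 and 3.75 CPM in M_WT. The groups overlapped only through M_KO_5642, which lay below M_WT_5643. The means were 7.81 ± 3.18 CPM in M_KO and 3.84 ± 0.806 CPM in M_WT (SD, n = 3 each), with an edgeR log2 fold change of 1.01 (SE 0.37). F_KO had 15.3 CPM and F_WT 9.86 CPM, a ratio of 1.55 (1.30 to 1.85, counting interval). Both F libraries thus lay above all M_WT libraries, and F_WT was at the level of the higher M_KO libraries. The F against M term, a contrast that did not choose the set, was log2 1.17 (SE 0.32) for Thbs3 with an unadjusted p of 0.00713 and an edgeR adjusted p of 1.0. Exons of Mtx1, a mitochondrial import gene on the opposite strand, overlap those of Thbs3 by 318 bases, and whether the counting used strand is not stated in the labels. Mtx1 was at 12.8 to 18.3 CPM with an edgeR log2 fold change of 0.20 (SE 0.17).

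Among Thbs1, Thbs2 and Thbs3 the transcripts were almost wholly Thbs1. Thbs1 had 3108 ± 1324 FPKM in M_KO and 3648 ± 423 FPKM in M_WT, Thbs3 had 1.60 ± 0.650 FPKM in M_KO and 0.794 ± 0.168 FPKM in M_WT, and Thbs2 had 0.527 ± 0.323 FPKM in M_KO and 0.0935 ± 0.0373 FPKM in M_WT (SD, n = 3 each). Thbs1 made up at least 99.9% of the summed FPKM of these 3 genes in each library, so the higher Thbs2 and Thbs3 levels added at most 0.0974% of it, in F_KO.

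**Figure D2:**
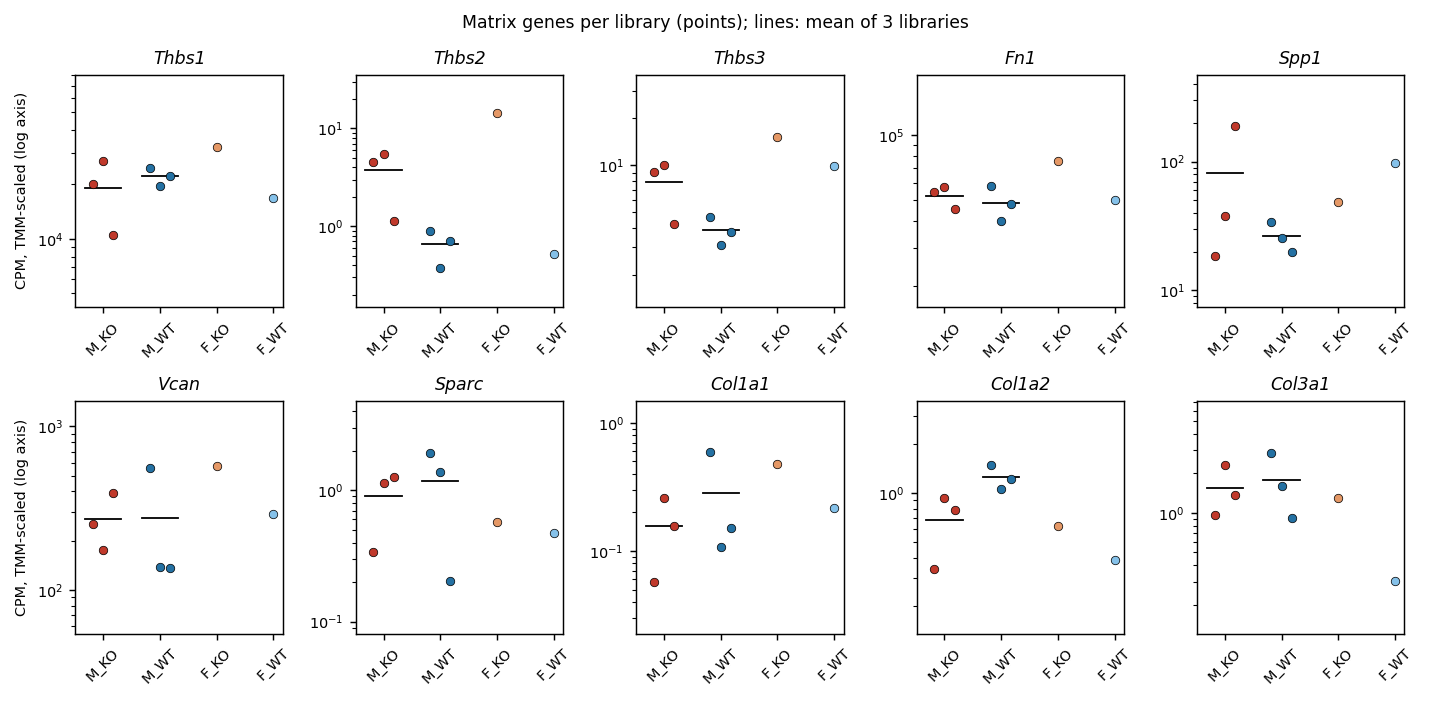
TMM-scaled CPM of the 10 genes in each library (y axis, log scale, with its own range in each panel); points are libraries and lines are means of the 3 M libraries of a genotype. Thbs2 is the gene in which all KO points, from 1.14 to 14.2 CPM, lie above all WT points, from 0.372 to 0.889 CPM; in Spp1 a single M_KO library lies at 190.3 CPM.

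Osteopontin, a secreted phosphoprotein that binds integrins and CD44, was set by single libraries. Spp1 (ENSMUSG00000029304, chromosome 5, 104435118 to 104441050, plus strand) had 18.5, 37.7 and 190.3 CPM in M_KO and 34.0, 25.5 and 19.9 CPM in M_WT. M_KO_5642 stood far above the others, and M_KO_5944 was the lowest of all. The edgeR log2 fold change was 1.64 (SE 0.81) with M_KO_5642 and 0.08 without it. It was 0.74 with a covariate for animal numbers beginning with 56. In the F pair the order was the other one, with 48.2 CPM in F_KO and 97.1 CPM in F_WT (ratio 0.496, 0.460 to 0.535, counting interval), and the interaction was not called (log2 -2.65, SE 1.63, edgeR adjusted p = 0.965). The libraries with the most Spp1, M_KO_5642 and F_WT_5638, are those with the least Thbs1 and the lowest resident macrophage marker sum, whose part in the Spp1 values was not tested. Gm42793, an annotated gene model on the same strand, overlaps Spp1 by 309 exon bases and had 0 to 71 counts.

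Versican, a large proteoglycan that binds hyaluronan, varied widely within each genotype. Vcan (ENSMUSG00000021614, chromosome 13, 89655312 to 89742509, minus strand) had 253, 175 and 389 CPM in M_KO and 557, 138 and 135 CPM in M_WT. M_WT_5643 was the highest of the 6 and the other M_WT libraries the lowest, so the M_WT libraries enclosed all M_KO libraries. The means were 272 ± 109 CPM in M_KO and 277 ± 243 CPM in M_WT (SD, n = 3 each), with an edgeR log2 fold change of -0.03 (SE 0.61) that was 1.0 without M_WT_5643. F_KO had 572 CPM and F_WT 291 CPM.

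The stromal genes were close to the limit of detection. Sparc (chromosome 11, 55394500 to 55423183), a collagen-binding matricellular protein, had 6, 22 and 32 counts in M_KO and 39, 26 and 4 counts in M_WT, with 12 in F_KO and 11 in F_WT. The M_WT libraries enclosed the M_KO libraries (edgeR log2 fold change -0.34, SE 0.80). Col1a1 (chromosome 11, 94936224 to 94953042), a chain of type I collagen, had 1, 5 and 4 counts in M_KO and 12, 2 and 3 counts in M_WT, with 10 in F_KO and 5 in F_WT. It did not pass the expression filter. These are a few counts in whole libraries, and M_WT_5643 was the highest M library for both genes.

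Col1a2 (chromosome 6, 4504814 to 4541544), the other type I chain, had 6, 18 and 20 counts in M_KO and 30, 20 and 24 counts in M_WT. In CPM it was 0.340, 0.930 and 0.789 in M_KO and 1.48, 1.06 and 1.22 in M_WT, so every M_KO library lay below every M_WT library (edgeR log2 fold change -0.86, SE 0.44). That order was found in 7.15% of all tested genes. F_KO had 13 counts and F_WT 9 counts. Col3a1 (chromosome 1, 45311538 to 45349706), the chain of type III collagen, had 17, 45 and 35 counts in M_KO and 58, 30 and 18 counts in M_WT, which overlapped (edgeR log2 fold change -0.21, SE 0.52). F_KO had 27 Col3a1 counts and F_WT 7, a ratio of 4.31 with a wide counting interval of 1.83 to 11.7.

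The 3 collagens together had 24, 68 and 59 counts in M_KO, 100, 52 and 45 counts in M_WT, 50 counts in F_KO and 21 counts in F_WT. Per length they summed to 0.134 to 0.344 FPKM in M_KO, 0.212 to 0.501 FPKM in M_WT, 0.253 FPKM in F_KO and 0.0939 FPKM in F_WT, against at least 3432 FPKM of Fn1 and 1707 FPKM of Thbs1 in any library. The summed collagen CPM, here scaled to total counts without TMM factors, was highest in M_WT_5643 (4.57) and lowest in F_WT_5638 (0.960), where the Fn1 shares were 5.39% and 5.29%. Thbs2 was highest in F_KO_5639, whose collagen CPM (2.33) lay within the M range of 1.32 to 4.57. The collagen sum was therefore small beside Fn1 and Thbs1 in each library, but not beside Thbs2. Thbs2 was at 0.0532 to 0.127 FPKM in M_WT, 0.0731 FPKM in F_WT and 0.161 FPKM in M_KO_5642, each below the collagen sum of its library. In M_KO_5944, M_KO_5645 and F_KO_5639 Thbs2 was above that sum (0.645, 0.774 and 2.01 FPKM). The part of stromal carry-over in the Thbs2 values was not tested.

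Fibroblast markers gave a similar picture with an exception. The 12 markers summed to 22.5 to 33.0 FPKM in M_KO, 25.0 to 28.1 FPKM in M_WT, 28.5 FPKM in F_KO and 40.2 FPKM in F_WT, but most of this was Pi16, a gene of perivascular and adventitial fibroblasts (12.5 to 31.2 FPKM over the 8 libraries), followed by Gsn, which many cell types express. Of the 12 markers, 7 were counted in every library, among them the collagen chain Col5a1 with 10 to 93 counts. Lum, Dpt, Col6a3 and Mfap5, picked after their values were seen, had at most 4 counts in any library and 0 in at least 1. Pdgfra had 5 to 46 counts and Dcn 15 to 68, while Pdgfrb, a receptor of pericytes and fibroblasts, had 40 to 301 counts, the most in M_WT_5643. The 10 mesothelial markers, led by Krt19 and Krt8, summed to 0.534 to 1.46 FPKM, and the 9 endothelial markers, led by Pecam1 and Cdh5, to 1.14 to 2.77 FPKM.

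Platelets carry thrombospondin-1 in their granules, and the 9 platelet and megakaryocyte markers summed to 871 to 1484 FPKM in M_KO, 964 to 3291 FPKM in M_WT, 1852 FPKM in F_KO and 1575 FPKM in F_WT. Nearly all of it was Pf4, which macrophages also express. The next marker, Ppbp, reached 2.30 FPKM, and the receptor gene Gp1bb had 0 counts in all libraries. M_WT_6258 had the highest sum, and its Thbs1 level of 3229 FPKM was below that of 5 other libraries. As the sum is nearly all Pf4, it does not rank the libraries by platelet content. The part of platelets in the Thbs1 values was not tested.

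**Figure D3:**
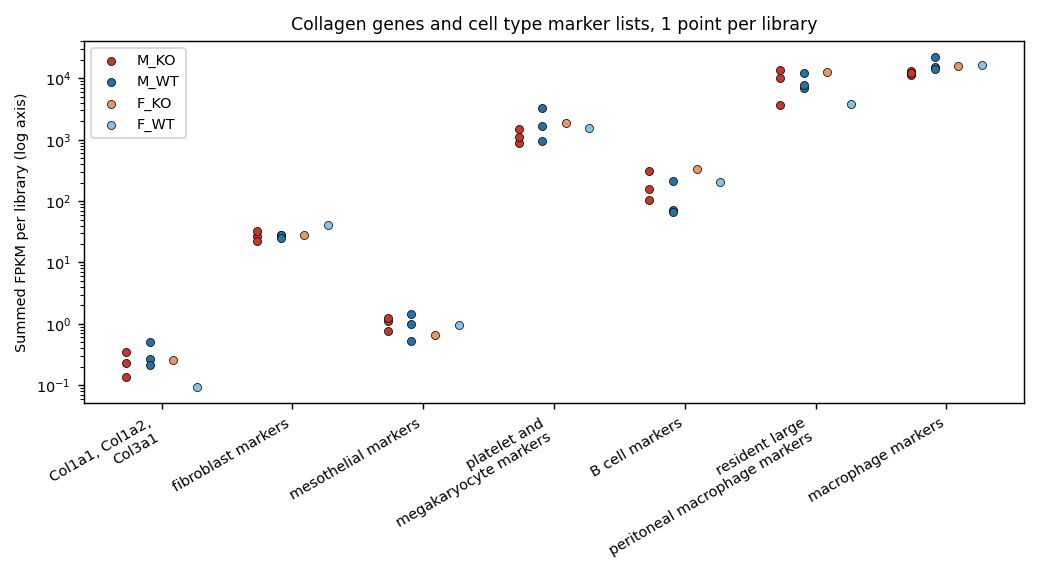
Summed FPKM (y axis, log scale) of the 3 collagens and of 6 marker lists, 1 point per library and colours by group. The collagens lie below 0.502 FPKM and the macrophage markers between 11409 and 22150.2 FPKM; the resident macrophage sum is lowest in M_KO_5642 (3685) and F_WT_5638 (3885).

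The remaining marker lists were summed in the same way. B cell markers, led by Ighm and Cd79a, summed to 160, 308 and 104 FPKM in M_KO, 213, 72.0 and 67.6 FPKM in M_WT, 337 FPKM in F_KO and 204 FPKM in F_WT. In M_KO against M_WT 9 of the 10 had a positive log2 fold change, as had 51.5% of all tested genes. EdgeR called 0 of the 10, and 0 had an unadjusted p under 0.05. F_KO and M_KO_5645 were the highest for B cell markers, as they were for Thbs1, and their part in it was not tested. Neutrophil markers, led by S100a8 and S100a9, ran from 5.48 to 28.0 FPKM over the libraries. Mast cell and basophil markers, led by Hdc and Cma1, ran from 15.7 FPKM in M_KO_5642 to 179 FPKM in F_KO. Dendritic cell markers, led by Cd209a and Ccr7, were at 4.47 to 4.80 FPKM in M_KO and 9.35 to 19.9 FPKM in M_WT. Both F libraries lay between these ranges, with 6.84 FPKM in F_KO and 7.72 FPKM in F_WT. Of the 6 tested dendritic cell markers, 1 had every M_KO library below every M_WT library (7.15% of all tested genes). T and NK cell markers, led by Lck and Cd3d, reached 1.35 FPKM, and eosinophil markers, led by Il5ra and Siglecf, 2.20 FPKM. Of 67 tested marker genes edgeR called 0, with 4 at an unadjusted p under 0.05, and DESeq2 called Vsig4 of the resident macrophage list and Cd209a among 83 with an adjusted p. Over all genes 0.022% were called by edgeR, 9.56% had an unadjusted p under 0.05, and 1.21% were called by DESeq2.

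Across the members, 9 of 10 passed the expression filter of the M comparison. Thbs2 passed with 3 M_KO and 2 M_WT libraries at the filter level, and Col1a2 with 2 M_KO and 3 M_WT libraries. EdgeR called 0 of the 9 at an adjusted p under 0.05, where 0.022% of 13646 tested genes were called. At an unadjusted p under 0.05 there were 2 (Thbs2 and Thbs3), where the background was 9.56%. DESeq2 called Thbs2, as higher, with a background of 1.21% called and 0.611% called as higher. The choice of the set used this contrast, so nothing is read from these counts. Of the 9, 4 had a positive and 5 a negative log2 fold change, with a median of -0.03 against 0.01 over all tested genes, of which 51.5% were positive. In 1 gene all M_KO libraries were above all M_WT libraries (background 9%), and in 1 gene, Col1a2, below (background 7.15%).

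In the F pair, without replicates, 8 of 9 genes were higher in F_KO (50.8% of all genes), with a median log2 difference of 0.63 against 0.01 over all genes. A log2 difference over 1 was seen for Thbs2 and Col3a1 (5.08% of all genes) and under -1 for Spp1 (5.37%). The F and M values of the same genes stand side by side as follows. Thbs2 and Thbs3 were higher in KO in both, Thbs1 and Vcan differed by 0.95 and 0.97 in F against -0.22 and -0.03 in M, and Spp1 had opposite signs. Neither the F against M term nor the interaction was called for any of the 9 genes by edgeR (adjusted p of 1.0, and 0.965 to 0.985) or DESeq2, with 1 gene and 0 genes at an edgeR unadjusted p under 0.05. The backgrounds were 0.0291% and 0.0218% called, and 3.08% and 4.36% at the unadjusted threshold.

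**Figure D4:**
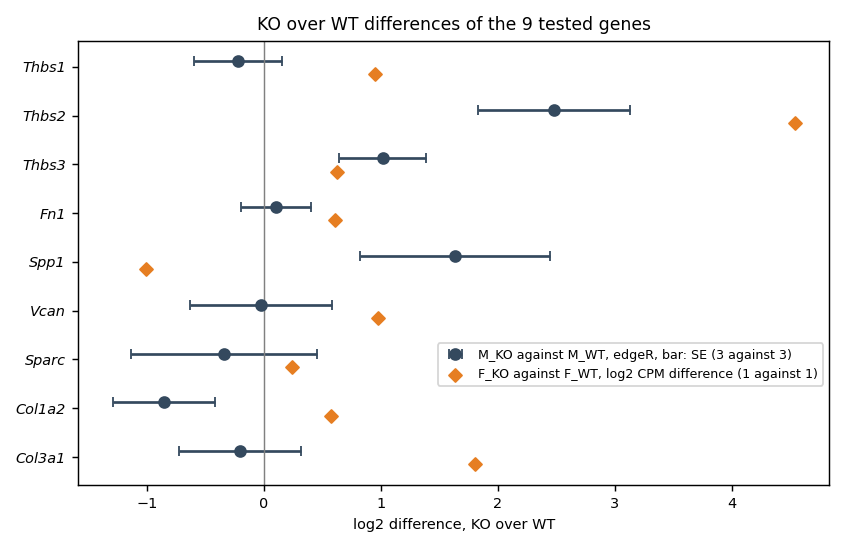
Log2 differences of KO over WT (x axis) for the 9 tested genes (rows). Circles with SE bars are edgeR estimates of M_KO over M_WT (3 against 3 libraries) and diamonds the difference of log2 CPM of F_KO over F_WT (1 against 1); Thbs2 is highest in both, at 2.48 and 4.55, and Spp1 lies at 1.64 and -1.01.

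**Figure D5:**
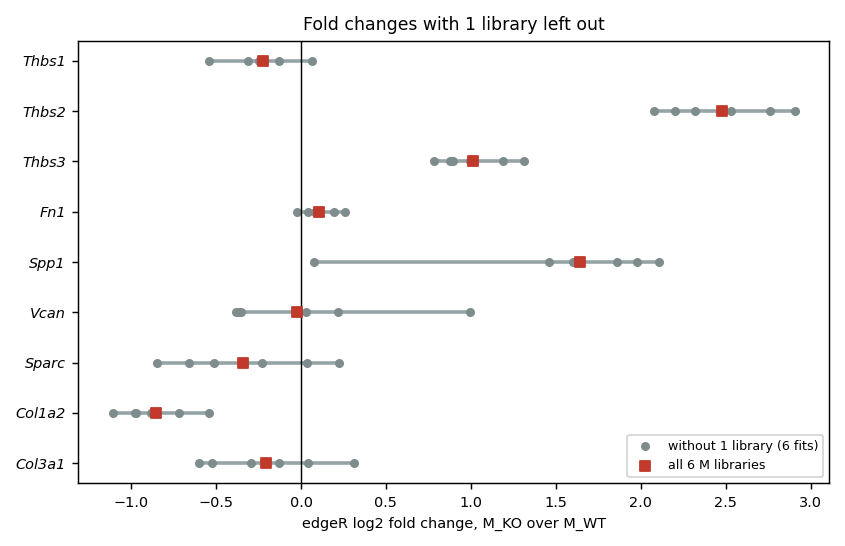
EdgeR log2 fold changes of M_KO over M_WT (x axis) with all 6 M libraries (squares) and with each library left out in turn (grey points joined by a line). Thbs2 (2.08 to 2.91), Thbs3 (0.78 to 1.31) and Col1a2 (-1.11 to -0.54) keep their sides of 0, Spp1 drops to 0.08 without M_KO_5642, and Thbs1, Fn1, Vcan, Sparc and Col3a1 cross 0.

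The receptors and partners of these proteins were read from the same fit. Of 123 genes in 8 lists, 69 were tested, and edgeR called 0 of them (10 at an unadjusted p under 0.05, DESeq2 0), where the backgrounds of the M comparison were 0.022%, 9.56% and 1.21%. With genotype fitted over all 8 libraries edgeR again called 0 (8 at an unadjusted p under 0.05), with backgrounds of 0.00727% and 9.48%, while DESeq2 called 3, Cd44, Postn and Smoc1, with a background of 0.874%. Of the 14 thrombospondin receptors and partners, 13 were tested, 7 with a positive and 6 with a negative log2 fold change and a median of 0.09. The most abundant were the integrin chain Itgb1 (442 ± 132 FPKM in M_KO and 523 ± 36.6 FPKM in M_WT), the chaperone and surface partner Calr (328 ± 40.4 and 394 ± 53.0 FPKM in M_KO and M_WT) and the scavenger receptor Cd36 (219.9 ± 27.9 FPKM in M_KO and 178 ± 35.0 FPKM in M_WT; SD, n = 3 each). All 14 were counted in every library of both genotypes, but the levels differed widely, and Itga3 had only 6 to 22 counts per library. EdgeR called none of the 13 tested.

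Of 11 fibronectin and osteopontin receptors 9 were tested, 4 positive and 5 negative, with a median of -0.04. Cd44, a receptor of hyaluronan and osteopontin, was at 652, 463 and 452 CPM in M_KO and 819, 1090.5 and 809 CPM in M_WT, with 495 CPM in F_KO and 774 CPM in F_WT. Every KO library was below every WT library, an order that 2.33% of all genes had. The edgeR log2 fold change was -0.80 (SE 0.21, adjusted p = 0.434), which did not pass. Itga5, the integrin chain that pairs with Itgb1 to bind fibronectin, had 63.5 ± 18.6 FPKM in M_KO and 65.9 ± 4.92 FPKM in M_WT (SD, n = 3 each).

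Of 32 other matricellular and secreted glycoproteins 14 were tested, 10 positive and 4 negative, with a median of 0.14. The most abundant were Ecm1 (748 ± 345 FPKM in M_KO and 663 ± 231 FPKM in M_WT, SD, n = 3 each), Emilin2 and Tgfbi, whose edgeR log2 fold changes were 0.18 (SE 0.41), -0.18 (SE 0.19) and -0.52 (SE 0.34). Comp, Postn and Smoc1, picked after their values were seen, were above all WT libraries in each of the KO libraries, an order that 3.35% of all genes had. Comp, the pentameric thrombospondin of cartilage, had 12, 18 and 80 counts in M_KO, 4, 6 and 6 in M_WT, 16 in F_KO and 14 in F_WT. Postn, the integrin-binding protein periostin, had 47, 88 and 14 counts in M_KO, 11, 2 and 10 in M_WT, 37 in F_KO and 12 in F_WT. Smoc1, a relative of Sparc, had 25, 15 and 26 counts in M_KO, 4, 5 and 11 in M_WT, 38 in F_KO and 8 in F_WT. Their edgeR log2 fold changes were 2.53 (SE 0.71), 2.70 (SE 0.87) and 1.63 (SE 0.51), with adjusted p of 0.447, 0.474 and 0.474. Comp and Postn passed the expression filter of the M comparison through their M_KO libraries alone. They could thus enter the test only as higher in M_KO, so their values and their part in the positive signs of this list are a description. The KO and WT ranges were close for Comp and Postn (in CPM, lowest KO 0.681 and 0.552, highest WT 0.603 and 0.543).

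Of 20 proteoglycan and hyaluronan genes 11 were tested, 5 positive and 6 negative, with a median of -0.12. Prg4, lubricin, had 1399 ± 781 FPKM in M_KO and 1295 ± 436 FPKM in M_WT, and Srgn, the proteoglycan of secretory granules, 498 ± 70.5 FPKM in M_KO and 707 ± 78.2 FPKM in M_WT (SD, n = 3 each). Every M_KO library was below every M_WT library for Srgn (edgeR log2 fold change -0.50, SE 0.17, adjusted p = 0.474), an order that 7.15% of all tested genes had. Agrn, agrin, had a log2 fold change of -0.39 (SE 0.42). Prg4 and Ecm1 were lowest in M_KO_5642 among the M libraries, as Thbs1 was.

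Of 15 other collagen chains 7 were tested, 4 positive and 3 negative, with a median of 0.07. Col27a1 (4.15 ± 2.57 FPKM in M_KO and 7.18 ± 0.919 FPKM in M_WT) was the most abundant, with Col4a2 next. Col4a1, a basement membrane chain, had 101, 145 and 352 counts in M_KO, 98, 72 and 65 in M_WT, 288 in F_KO and 162 in F_WT. Every M_KO library was above every M_WT library in CPM, an order that 9% of all tested genes had. The edgeR log2 fold change was 1.18 (SE 0.37, adjusted p = 0.474), while Col4a2, its partner chain, had a log2 fold change of -0.38 (SE 0.40).

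Of 10 laminin chains 4 were tested, 2 positive and 2 negative, with a median of 0.17. Lamc1 had 15.9 ± 3.79 FPKM in M_KO and 24.0 ± 4.05 FPKM in M_WT (edgeR log2 fold change -0.59, SE 0.21, adjusted p = 0.478), while Lama3 and Lamb2 were under 4 FPKM in each library. Of 19 enzymes of collagen processing and crosslinking 15 were tested, 6 positive and 9 negative, with a median of -0.15. P4hb, a subunit of prolyl hydroxylase and a disulphide isomerase, had 336 ± 29.9 FPKM in M_KO and 374 ± 33.0 FPKM in M_WT, and Plod3 and Loxl2 followed. None of the 6 ADAMTS proteases that cleave versican passed the filter of the M comparison, and 1, Adamts1, passed that of the fit over 8 libraries. Adamts1, Adamts9 and Adamts4 reached 0.242, 0.123 and 0.123 FPKM.

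For the 4 members described most, the genes with the most similar profile over the 8 libraries were listed among 10334 protein-coding genes, as a description. Fn1 was most like Abca1, the cholesterol exporter (Pearson r 0.98, Spearman rho 0.98, 8 libraries), then Prr14, Kmt2b and Tmem214. Thbs1 was most like Dip2c (r 0.98, rho 0.98), then the transcription factor Stat3, Pik3r5 and Zfp592. Thbs2 was most like Zfp146 (r 0.97, rho 0.95), then Maml1, Lrrc41 and Prdm11, and Spp1 most like Ccdc28a (r 0.97, rho 0.93), then Mrpl33, Ap1b1 and Pigyl. Without the 2 libraries farthest from the median of the member, r was 0.97 for Abca1, 0.93 for Dip2c, 0.98 for Zfp146 and 0.76 for Ccdc28a. The profiles share their libraries and depth, and 96 genes had r over 0.9 with Fn1, 80 with Thbs1, 76 with Thbs2 and 19 with Spp1, so the order among them is not firm.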

How the data were processed

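Per the labels' protocols, the library kit was NEBNext Ultra RNA. Tools named in the submitters' processing notes are DESeq2 1.16.1, featureCounts 1.5.0-p3 and HISAT2 2.0.5 (builds mm10, GRCm38). Strandedness, the treatment of multi-mapped reads and the annotation version were not given in the sources. The deposited counts are raw whole numbers of reads for each gene. The deposited FPKM table holds FPKM by the authors. The authors' deposited comparison table gives log2 fold changes, p-values and a per-library signal derived from counts, which was not used. Of the value columns, 0 were without a sample or group. The coordinates of all 10 members equal those of GENCODE vM21 (GRCm38).

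Counts were tested with edgeR 4.0.16 (R 4.3.3, quasi-likelihood, TMM, default expression filter on genotype, which asks for about 10 counts in at least 3 libraries), with Benjamini-Hochberg adjustment over all tested genes and a threshold of 0.05. The M comparison had 6 libraries and 13646 genes, with 4 residual degrees of freedom and an estimated biological coefficient of variation of 0.30. Fits over 8 libraries (13751 genes) had genotype and letter, or their interaction. The SE of a log2 fold change was taken from its F statistic. The F pair was compared as log2 CPM with a prior count of 2, with 95% exact intervals. A count of 0 allows 3 counts, 0.118 to 0.170 CPM. As the labels name no molecular identifiers, intervals and floors cover counting error only. Scripts were tested on simulated data. Alternatives were DESeq2 1.42.0, other scalings and filters, limma 3.58.1 (voom, and log2 FPKM with pseudocounts of 1 and 0.1), a covariate for animal numbers beginning with 56, all 8 libraries, and leaving out each library. In the F pair and in the Fn1 share, the prior count and the denominator were varied.

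The members, gene lists and rules were chosen with earlier results of these data known. The text names all members, the 3 genes of highest mean FPKM in each of 8 pathway lists, the 2 highest in each of 12 marker lists, and the 4 genes most correlated with Fn1, Thbs1, Thbs2 and Spp1 (mean log2 CPM of at least 1); other genes were chosen after their values were seen.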

Additional observations from a re-analysis of the deposited data

Results flagged for a closer look

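Of 57 members and list genes examined, 3 had every M_KO library below every M_WT library while F_KO lay above F_WT. Over all tested genes, 7.15% had every M_KO library below every M_WT library, and 50.8% were higher in F_KO. The share of all genes that met both conditions was not counted, so nothing is read from the number flagged. Each of the 3 flagged genes was given an interaction test, and none was called. The F difference of Col1a2 was 0.58 on the log2 scale, from 13 counts in F_KO and 9 in F_WT (interaction edgeR adjusted p = 0.965). The F difference of Lamc1 was 0.58, with 228 CPM in F_KO and 152 CPM in F_WT (interaction edgeR adjusted p = 0.965). The F difference of Srgn was 0.067, with 1281 CPM in F_KO and 1223 CPM in F_WT (interaction edgeR adjusted p = 0.965). The F values rest on 1 library per genotype.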

How the results depend on the processing

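The number of genes called in M_KO against M_WT, 3 with edgeR, was 188 with DESeq2 and 16 without a filter on low counts, and 0 to 21 when 1 library was left out (0 without M_WT_6255, 5 without M_WT_6258, 5 without M_KO_5944, 21 without M_WT_5643). Genotype over all libraries called 1, with DESeq2 132, without a filter 7, and 0 to 3 with 1 library left out. F against M called 4, with DESeq2 16, and 4 to 9 with 1 library left out (9 without F_KO_5639). The interaction called 3, with DESeq2 22, with voom 1, and 0 to 6 with 1 library left out; it could not be fitted without an F library. The Fn1 share difference was 0.381 points with TMM-scaled library sizes, 0.808 without the 10 most abundant genes, and 0.296 to 1.03 with 1 library left out.

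Fitted directions of low or variable members turned. Vcan was 0.23 with voom, 0.20 and 0.23 with FPKM pseudocounts of 1 and 0.1, and 0.22 with all 8 libraries, where Thbs1 was 0.068 and Col3a1 0.27. With 1 library left out, Thbs1 ran from -0.54 to 0.066, Fn1 from -0.024 to 0.26, Vcan from -0.38 to 1.0, Sparc from -0.85 to 0.22 and Col3a1 from -0.60 to 0.31. The turns were without M_KO_5642 for Thbs1 and M_WT_6258 for Fn1, without M_WT_5643 (Vcan 1.0, Sparc 0.22, Col3a1 0.31), without M_KO_5944 (0.028, 0.037 and 0.044 for the same genes) and without M_KO_5645 (Vcan 0.21). The causes were not tested. Of the other member values, 128 kept direction and side of the threshold, and Thbs2 passed with DESeq2. The median of the collagen processing list was 0.055 without M_WT_5643, and the other list medians moved by less than their spread between libraries. The count of genes called in each of the 7 pathway lists with tested genes was 0 under every setting run for M_KO against M_WT, DESeq2 included. These settings were not run for the marker lists. Col1a1 and the ADAMTS list have no edgeR value in the M comparison, since they did not pass its filter. No paired analysis was run, because the labels give no pairing of libraries between the groups. Depth limits the collagens, Sparc and Thbs2, which rest on 1 to 296 counts per library.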
